A study of Mus musculus with 4 samples.

Results

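The 5 mouse genes described here make up the pathway that attaches the small protein ISG15 to other proteins and removes it again. They are Isg15 itself, the activating enzyme gene Uba7, the conjugating enzyme gene Ube2l6, the ligase gene Herc6 and the protease gene Usp18. They were chosen by gene symbol, and each matched exactly 1 of the 32285 genes counted in both libraries. ISG15 resembles ubiquitin and is joined to lysines of target proteins by a chain of enzymes: UBA7 activates it, UBE2L6 takes it over, and HERC6 is the main ligase that places it on targets in the mouse. USP18 cuts ISG15 off its targets and, apart from that, sits at the type I interferon receptor and dampens its signalling. All 5 genes are known to be induced by interferons, and in gut epithelium interferon-λ is a main inducer, acting through a receptor whose specific chain is encoded by Ifnlr1.

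The measurements are single-cell RNA counts from small intestinal epithelium of irradiated mice. KO mice were VilCreIfnlr1fl/fl, in which Cre recombinase driven from the Villin promoter deletes floxed Ifnlr1 in the intestinal epithelium and leaves the gene intact in other cells. WT mice carried no such deletion, and no unirradiated mice were analysed here. All mice, KO and WT, received 11 Gy of gamma rays under ketamine and xylazine while lead covered the head, thorax and upper limbs. For tissue collection the sources name both 96 h and 3 days. Ages and sexes are not given in the sources used here. Live EPCAM-positive, CD45-negative cells of 3 KO and 3 WT mice were stained with hashtags, DNA-tagged labels that mark the mouse of origin; each hashtag is taken here as 1 mouse, which the labels do not state outright. Each genotype was 1 pooled library; differences between pools and between genotypes therefore cannot be told apart, and p-values measure the spread between mice within 2 pools.

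On the mm10 genome, Isg15 (ENSMUSG00000035692) lies on the minus strand at chr4:156199424-156200818 and overlaps no other annotated gene. Uba7 (ENSMUSG00000032596) lies on the plus strand at chr9:107975505-107984060 and shares its strand with the overlapping gene Gm20661. Ube2l6 (ENSMUSG00000027078) lies at chr2:84798828-84810335 on the plus strand, with no overlapping gene. Herc6 (ENSMUSG00000029798) lies at chr6:57581000-57664632 on the plus strand and overlaps Gm45193 on the same strand and the pseudogene Gm19244 on the other. Usp18 (ENSMUSG00000030107) lies on the plus strand at chr6:121245906-121270917, where the antisense RNA gene Gm44148 overlaps it. Counts of Uba7, Herc6 and Usp18 are uncertain to the extent that reads were shared with these neighbours.

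Promoters of the modifier, of its activating enzyme and of its ligase are shown because Isg15 and Herc6 were far lower in KO mice while the levels of Uba7 overlapped. They run from 250 bases before to 50 bases after the RefSeq start on GRCm38.p6, and the table used holds 4 of the 5 members, all but Usp18. Capitals mark the core of the interferon-stimulated response element, the letters GAAANNGAAA on either strand, which the factor ISGF3 binds. The Isg15 promoter is at chr4:156200769-156201068 on the minus strand, the Uba7 promoter at chr9:107975317-107975616 on the plus strand and the Herc6 promoter at chr6:57580742-57581041 on the plus strand.
Isg15: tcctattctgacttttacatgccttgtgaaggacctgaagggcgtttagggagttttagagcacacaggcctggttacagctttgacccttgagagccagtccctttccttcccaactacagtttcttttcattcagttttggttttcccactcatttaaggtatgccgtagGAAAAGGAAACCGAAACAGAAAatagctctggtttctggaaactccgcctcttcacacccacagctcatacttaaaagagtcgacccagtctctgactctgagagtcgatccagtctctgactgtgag
Uba7: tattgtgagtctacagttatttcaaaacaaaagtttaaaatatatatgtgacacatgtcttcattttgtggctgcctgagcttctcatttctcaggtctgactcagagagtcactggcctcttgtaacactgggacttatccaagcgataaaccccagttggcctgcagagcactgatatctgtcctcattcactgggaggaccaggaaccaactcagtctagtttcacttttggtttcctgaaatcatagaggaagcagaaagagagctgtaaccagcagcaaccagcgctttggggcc
Herc6: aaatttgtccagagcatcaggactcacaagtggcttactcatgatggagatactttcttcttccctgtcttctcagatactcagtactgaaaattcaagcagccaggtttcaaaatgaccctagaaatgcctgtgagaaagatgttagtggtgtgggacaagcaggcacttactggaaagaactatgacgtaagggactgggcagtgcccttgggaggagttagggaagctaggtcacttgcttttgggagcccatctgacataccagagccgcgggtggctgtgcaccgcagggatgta
The Isg15 window holds 3 overlapping matches, which begin 78, 72 and 66 bases before the start. The core was found in 3.44% of the 32851 RefSeq promoters searched. It was not found in the windows of Uba7, Ube2l6 or Herc6. Only exact matches were counted, so these windows may hold near matches, and their absence here does not show that a gene lacks such an element. The letters of the GAS element (TTCNNNGAA), bound by STAT dimers and present in 8.30% of promoters, were not found in any of the 4 windows. These matches describe letters in a window and were not tested as binding sites.

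After filtering, 4028 of 7370 KO barcodes and 5563 of 10453 WT barcodes remained, of which 9 barcode sequences occurred in both libraries. Hashtags assigned 843 to 1030 cells to each KO mouse and 845 to 1062 to each WT mouse, with 14731105 to 35999518 summed UMIs (unique molecular identifiers, 1 per captured transcript) in KO and 11142876 to 21067444 in WT. The mice with hashtag number 2 stood apart in both genotypes. KO2 and WT2 held all hashtagged crypt progenitor-like cells (165 and 85) and almost all hashtagged cells of cluster 11, an enterocyte-like group with very deep cells (143 and 76 cells, against 0 to 3 in the other mice). Results of the members without these cells or mice are given beside them where that changed a call. Ifnlr1 itself was at 26.9, 16.0 and 22.7 CPM (UMIs scaled to the same total in every sample) in KO1 to KO3 and at 22.6, 15.5 and 26.3 CPM in WT1 to WT3; which part is deleted is not stated, and counts from the 3′ end need not cover it, so this does not check the deletion. Neutrophil markers summed to 1.72 to 5.12 CPM in KO mice and 0.617 to 3.09 CPM in WT2 and WT3, but to 29.6 CPM in WT1. Plasma cell and B cell markers summed to 0.194 to 0.272 CPM in KO mice and 259 CPM in WT2, against 1.88 and 2.01 CPM in the other WT mice. The enterocyte-like cells of WT2 carried these markers at 533 CPM, against 0.135 to 0.342 CPM in KO mice and 2.23 and 2.15 CPM in WT1 and WT3, and their part in the results was not tested.

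Isg15, the modifier, was lower in every KO mouse than in every WT mouse, by 5.81 times in the fit over all cells, 4.89 times in enterocyte-like and 6.97 times in goblet-like cells. Summed over all cells of a mouse, it stood at 85.4, 27.6 and 60.6 CPM in KO1 to KO3, against 299, 169 and 397 CPM in WT1 to WT3. No KO mouse reached the lowest WT mouse, WT2. In enterocyte-like cells, the absorptive cells that made up most of both libraries, it was at 129, 52.0 and 95.8 CPM in KO mice and at 359, 287 and 531 CPM in WT mice. In goblet-like cells, the mucus-secreting cells, the values were 16.0, 9.65 and 11.9 CPM in KO mice and 52.2, 44.5 and 128 CPM in WT mice. The genotypes did not overlap in any of the 3 sets, and within both genotypes the mouse with hashtag 2 was lowest in each. KO2 was the lowest KO mouse and also the deepest.

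The fitted log2 fold change of Isg15, KO over WT, was −2.54 (SE 0.61) in all cells, −2.29 (SE 0.47) in enterocyte-like and −2.80 (SE 0.58) in goblet-like cells. By edgeR's quasi-likelihood test with Benjamini-Hochberg adjustment over all genes these did not pass 0.05 (adjusted p = 0.989, 0.696 and 0.631). With the hashtag number as a block, the fit compares mice of equal number, and Isg15 fell in all 3 sets (adjusted p = 0.00535, 1.23e-04 and 0.00951). DESeq2 without a block called it as well (adjusted p = 0.0204, 0.00211 and 4.47e-04). The unblocked edgeR test passed too in enterocyte-like cells without cluster 11 (log2 fold change −2.12, adjusted p = 3.14e-04) or without KO2 and WT2 (adjusted p = 0.00351). It also passed in goblet-like cells without WT2 (adjusted p = 0.0213), without KO2 and WT2 (adjusted p = 0.00111) or without the 5% of cells with the most UMIs (adjusted p = 0.0372).

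**Figure D1:**
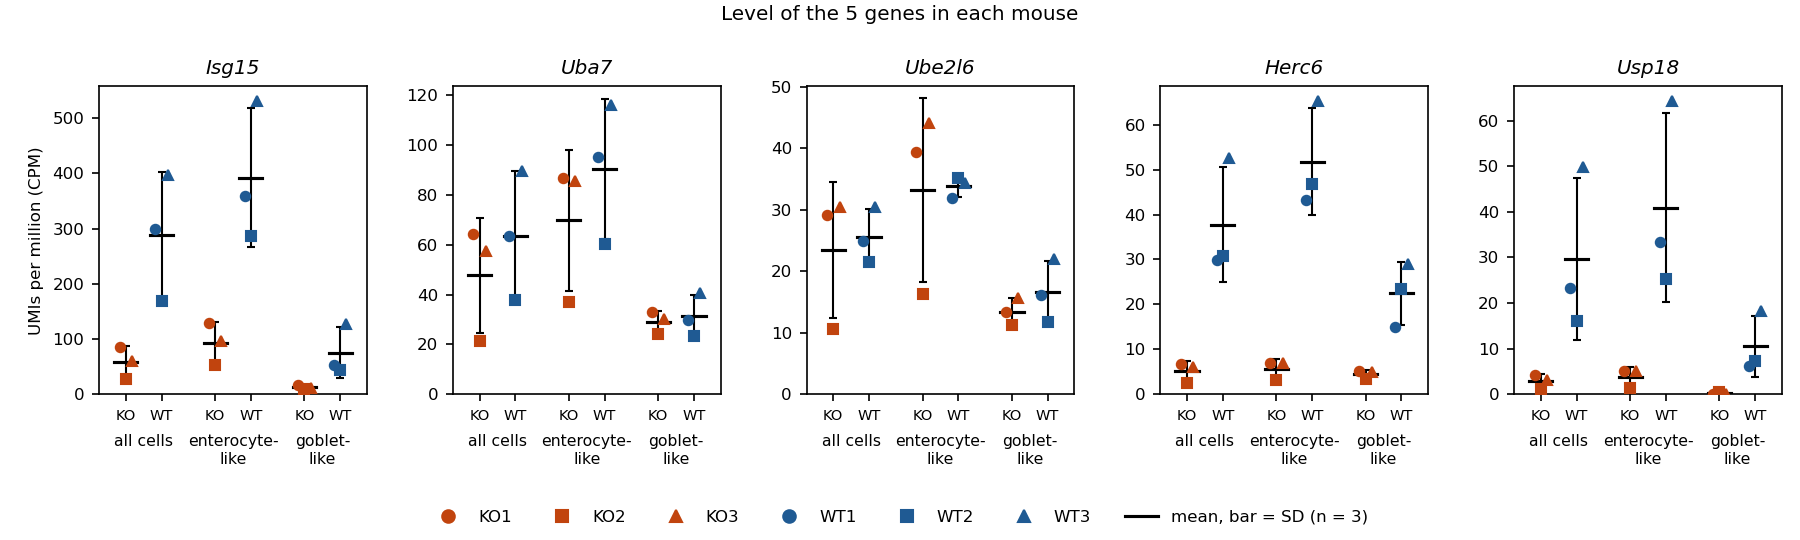
CPM of each gene (vertical axes, from 0, a separate scale for each gene) in each mouse, with KO left of WT in each pair, for all cells, enterocyte-like cells and goblet-like cells. Points are mice, lines are means and bars SD (n = 3). Isg15, Herc6 and Usp18 are lower in every KO mouse than in every WT mouse, and Uba7 and Ube2l6 overlap.

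Uba7, which starts the chain, differed far less between the genotypes. In all cells it stood at 64.1, 21.3 and 57.6 CPM in KO mice and 63.4, 37.8 and 89.5 CPM in WT mice. In enterocyte-like cells it stood at 86.7, 37.0 and 85.5 CPM in KO mice and 95.3, 60.2 and 116 CPM in WT mice, and in goblet-like cells at 32.9, 24.0 and 29.99 CPM in KO mice and 29.9, 23.3 and 40.5 CPM in WT mice. The genotypes overlapped in all 3 sets. The log2 fold changes were −0.63 (SE 0.58), −0.58 (SE 0.45) and −0.29 (SE 0.38), none past the threshold in edgeR without the block (adjusted p = 0.989, 0.912 and 1.0). With the block, Uba7 passed in enterocyte-like cells only (log2 fold change −0.60, adjusted p = 0.00925), and this call was lost there without cluster 11 (adjusted p = 0.339) and without the mice numbered 3 (adjusted p = 0.121). In all cells the blocked fit called Uba7 without the mice numbered 1 (log2 fold change −0.88, adjusted p = 0.00633), and with all mice it did not (adjusted p = 0.0912).

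Ube2l6, which carries the activated ISG15, showed no steady direction. It stood at 29.1, 10.7 and 30.4 CPM in all cells of KO mice and 24.9, 21.5 and 30.4 CPM in WT mice. In enterocyte-like cells the values were 39.4, 16.2 and 44.1 CPM in KO mice and 31.8, 35.1 and 34.4 CPM in WT mice, so that KO1 and KO3 lay above every WT mouse and KO2 below. In goblet-like cells they were 13.4, 11.2 and 15.7 CPM in KO mice and 16.1, 11.8 and 21.9 CPM in WT mice. The log2 fold changes of −0.31 (SE 0.49), −0.20 (SE 0.39) and −0.50 (SE 0.41) did not pass (edgeR, adjusted p = 0.989, 0.912 and 1.0), nor did the blocked ones with all mice (adjusted p = 0.246, 0.335 and 0.770). In goblet-like cells the blocked fit without the mice numbered 2 called Ube2l6 (log2 fold change −0.65, adjusted p = 0.0338). Without KO2 the sign turned in all cells (0.065) and enterocyte-like cells (0.16).

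Herc6, the ligase, was the second gene of the chain that was far lower in KO mice. It stood at 6.65, 2.56 and 6.02 CPM in all cells of KO mice and at 29.97, 30.7 and 52.7 CPM in WT mice. In enterocyte-like cells KO mice had 6.95, 3.16 and 6.95 CPM and WT mice 43.1, 46.7 and 65.4 CPM. In goblet-like cells KO mice had 5.11, 3.41 and 5.04 CPM and WT mice 15.0, 23.5 and 28.9 CPM. The genotypes did not overlap in any set. The log2 fold changes were −3.10 (SE 0.53), −3.38 (SE 0.42) and −2.45 (SE 0.38). They did not pass in edgeR without the block (adjusted p = 0.808, 0.196 and 0.319), and Herc6 fell in all 3 sets with it (adjusted p = 0.00535, 2.83e-05 and 0.00560). Without the block edgeR called Herc6 in enterocyte-like cells without cluster 11 (adjusted p = 8.82e-05), without KO2 and WT2 (adjusted p = 0.00153) or without the 5% of cells with the most UMIs (adjusted p = 0.0166). It did so in goblet-like cells without WT2 (adjusted p = 0.0301), without KO2 and WT2 (adjusted p = 0.00248) or without the deepest 5% (adjusted p = 0.00525), and in all cells without crypt progenitor-like, neutrophil-like and cluster 11 cells (adjusted p = 0.0198).

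Usp18, the protease, showed the lowest ratio of KO to WT in all 3 sets. In all cells it stood at 4.14, 1.11 and 3.17 CPM in KO mice, against 23.2, 16.1 and 49.9 CPM in WT mice. In enterocyte-like cells the levels were 5.18, 1.41 and 5.01 CPM in KO mice and 33.4, 25.2 and 64.3 CPM in WT mice. No KO mouse came near the lowest WT mouse. The log2 fold changes were −3.65 (SE 0.75) in all cells and −3.63 (SE 0.67) in enterocyte-like cells; edgeR did not call them without the block (adjusted p = 0.989 and 0.474), and Usp18 fell with it (adjusted p = 0.00535 and 4.11e-05). The unblocked test called it in enterocyte-like cells without cluster 11 (adjusted p = 3.14e-04) or without KO2 and WT2 (adjusted p = 0.00351). In goblet-like cells 3 Usp18 UMIs were counted in 12183945 UMIs of the KO mice, all in KO2, against 110 in 10692878 UMIs of the WT mice. The ratio of these rates is 0.0239 (exact 95% interval 0.00486 to 0.0718, for counting error only). The fitted value there rests on these few UMIs and depends on the prior count of the fit, and the calls (adjusted p = 0.373 without the block and 0.0199 with it) are read with that limit, as are the unblocked ones without WT2 (adjusted p = 0.0301), without KO2 and WT2 (adjusted p = 0.00248) or without the deepest 5% of cells (adjusted p = 0.0408).

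Over all genes, the unblocked edgeR test called 0 of 12944 in all cells (232 at an unadjusted p under 0.05), 0 of 10620 in enterocyte-like cells (367) and 2 of 9594 in goblet-like cells (0.0208%, with 236 at an unadjusted p under 0.05), and none of the 5 members in any set. Isg15, Herc6 and Usp18 passed the unadjusted 0.05 in all 3 sets. With the block, 3 of the 5 members were called lower in all cells, where 0.973% of all genes were called lower. In enterocyte-like cells 4 of 5 were called lower, against 8.94% of all genes called lower and 20.2% called in either direction. In goblet-like cells 3 of 5 were called lower, against 0.229% of all genes. DESeq2 called the same 3 genes, Isg15, Herc6 and Usp18, in each set, where it called 0.239%, 0.395% and 0.229% of all genes lower. For the same 3 members every KO mouse stood under every WT mouse, which held for 1.66% of genes in all cells, 2.74% in enterocyte-like and 2.65% in goblet-like cells. The median log2 fold change of the 5 members was −2.54, −2.29 and −2.45 in the 3 sets, and that of all genes was 0.058, 0.058 and −0.0059. The member medians are the values of single genes, Isg15 in the first 2 sets and Herc6 in goblet-like cells. Uba7 and Ube2l6 lay between −0.63 and −0.20, so the medians do not describe all 5 members. Scaling by total UMIs moved the median of all genes to 0.22, 0.23 and 0.07 and turned the sign of no member. The exact permutation test of 3 against 3 mice on CPM gave p = 0.1 for Isg15, Herc6 and Usp18, the smallest it can give.

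**Figure D2:**
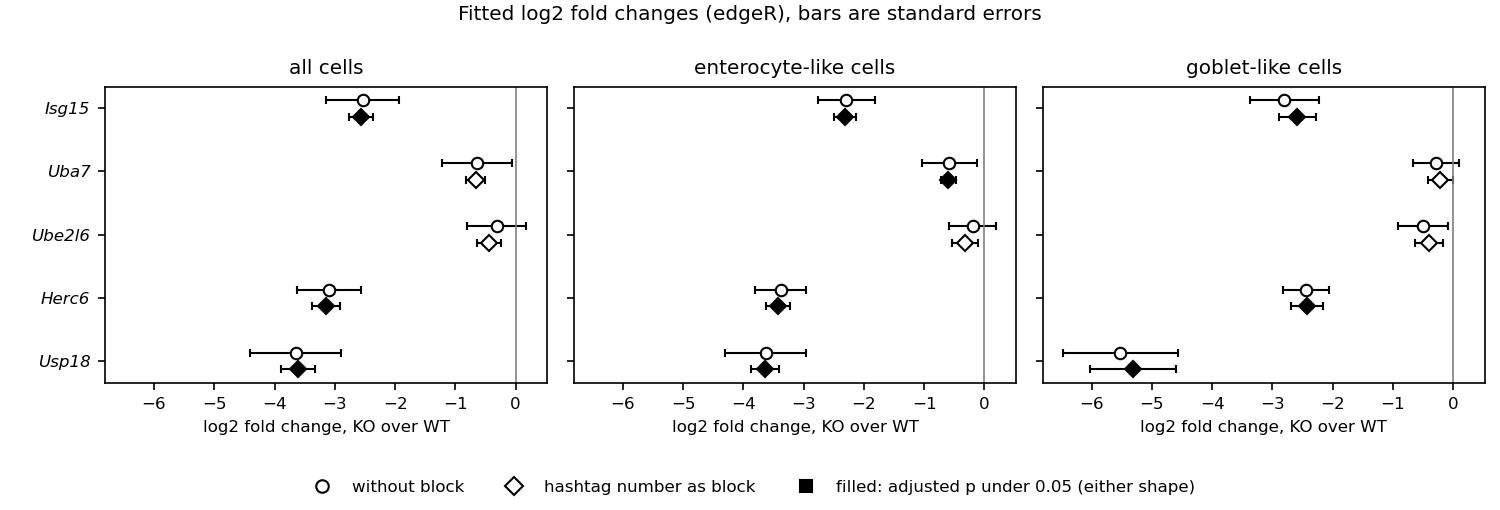
Fitted log2 fold changes, KO over WT (horizontal axis), with standard errors, for the 5 genes in 3 sets of cells, from edgeR without the block (circles) and with the hashtag number as a block (diamonds). Filled symbols have an adjusted p under 0.05: Isg15, Herc6 and Usp18 lie between −5.52 and −2.29 and are filled with the block, and Uba7 and Ube2l6 lie between −0.66 and −0.20, with Uba7 filled in enterocyte-like cells with the block.

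Levels of a gene depend on how the total of a mouse is made up, so the members were also set against each other within each mouse. Per Uba7 UMI, all cells held 1.33, 1.29 and 1.05 Isg15 UMIs in KO mice and 4.71, 4.48 and 4.44 in WT mice. In KO2, whose CPM were low for every member, this ratio was close to those of KO1 and KO3. The same ratio was 1.49, 1.41 and 1.12 in enterocyte-like cells of KO mice against 3.76, 4.77 and 4.59 in WT mice, and 0.485, 0.402 and 0.398 in goblet-like cells of KO mice against 1.75, 1.91 and 3.16 in WT mice. Herc6 per Uba7 was 0.0802, 0.0855 and 0.0813 in enterocyte-like cells of KO mice, against 0.452, 0.777 and 0.564 in WT mice. Ube2l6 per Uba7 overlapped, at 0.454, 0.438 and 0.516 in enterocyte-like cells of KO mice and 0.334, 0.583 and 0.297 in WT mice.

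Usp18 was lower relative to Isg15 as well. In enterocyte-like cells there were 0.0402, 0.0272 and 0.0523 Usp18 UMIs per Isg15 UMI in KO mice and 0.0931, 0.0878 and 0.121 in WT mice. Herc6 per Isg15 was 0.0539, 0.0608 and 0.0725 in KO mice and 0.120, 0.163 and 0.123 in WT mice in the same cells, and in goblet-like cells it overlapped, at 0.320, 0.353 and 0.422 in KO mice and 0.287, 0.528 and 0.226 in WT mice. Usp18 per Herc6 overlapped in enterocyte-like cells (0.746, 0.447 and 0.721 in KO mice, 0.774, 0.539 and 0.984 in WT mice). Of the 10 ratios between members, 8 did not overlap between the genotypes in each of the 3 sets. Most of these set Isg15, Herc6 or Usp18 over Uba7 or Ube2l6 and largely restate the separation of those genes in CPM. The others were Herc6 and Usp18 per Isg15 in all cells and enterocyte-like cells. In goblet-like cells they were Usp18 per Isg15 and per Herc6. For comparison, UMIs per Uba7 UMI were lower in every KO mouse than in every WT mouse for 0.68% of all other genes in all cells, 0.979% in enterocyte-like and 1.17% in goblet-like cells, and per Isg15 UMI for 0.0773%, 0.132% and 0.0417%. Per Isg15 UMI, 78.1%, 83.1% and 88.2% of all other genes were higher in every KO mouse than in every WT mouse. Such shares were not counted for ratios over Ube2l6 or Herc6. The exact permutation test gave p = 0.1 for each ratio without overlap, the smallest that 3 against 3 mice allow. A single cell of WT1 held 919 of that mouse's 3328 Isg15 UMIs (27.6%). It belongs to cluster 20, a group led by Anxa1, Ano3 and Anxa8 that no marker list named. Without it WT1 had 218 CPM of Isg15 and 3.41 Isg15 UMIs per Uba7 UMI in all cells, still above all KO mice; enterocyte-like and goblet-like values do not include it.

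**Figure D3:**
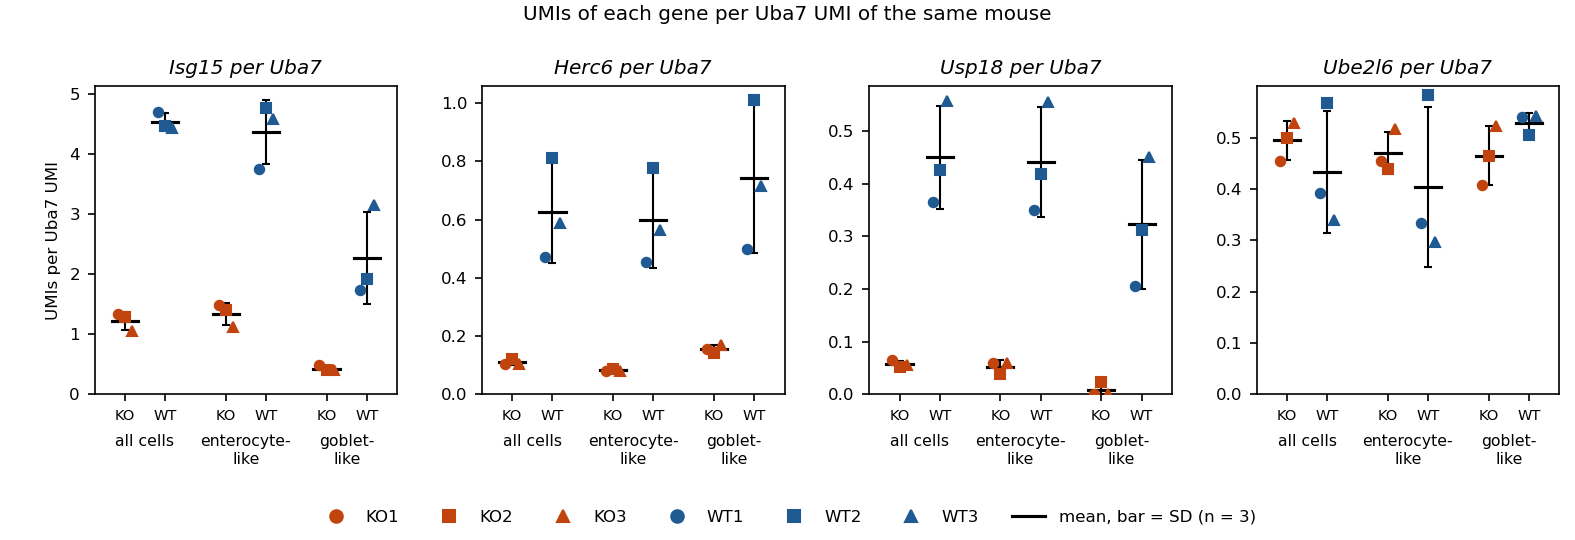
UMIs of Isg15, Herc6, Usp18 and Ube2l6 per Uba7 UMI of the same mouse (vertical axes, from 0, separate scales), KO left of WT, in 3 sets of cells. Points are mice, lines are means and bars SD (n = 3). The first 3 ratios separate the genotypes in every set, and Ube2l6 per Uba7 overlaps.

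The enterocyte-like cells of the genotypes lay mostly in different clusters, KO cells in clusters 0, 3 and 6 and WT cells in clusters 1, 2 and 4, so the members were compared within the 4 clusters that held at least 20 cells of every mouse. In cluster 6, enterocyte-like, Isg15 was at 132, 102 and 117 CPM in KO mice and 202, 202 and 313 CPM in WT mice. In cluster 8, enterocyte-like and led by Slc5a12, Cubn and Clca3a1, it was at 62.8, 39.0 and 60.8 CPM in KO mice and 249, 174 and 524 CPM in WT mice. In cluster 7, goblet-like, it was at 11.9, 12.8 and 13.02 CPM in KO mice and 41.7, 66.7 and 146 CPM in WT mice. KO2, low in the class as a whole, was level with the other KO mice in cluster 7. In cluster 12, goblet-like, the KO mice had 48.8, 12.7 and 7.76 CPM and the WT mice 86.7, 50.8 and 55.3 CPM, so KO1 came close to WT2.

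Herc6 and Usp18 did not overlap in any of the 4 clusters either, though some mice came close. In cluster 6 Herc6 was at 6.73 CPM in WT1 and 3.97 CPM in KO1, from so few UMIs that counting error could remove the gap. In cluster 7 Usp18 was at 1.94 CPM in WT2, also from very few UMIs. In cluster 8 Herc6 was at 4.19 ± 2.89 CPM in KO mice and 98.7 ± 37.7 CPM in WT mice, and Usp18 at 7.67 ± 7.28 CPM in KO mice and 66.6 ± 36.4 CPM in WT mice (SD, n = 3 each). No Usp18 UMI was counted in clusters 7 and 12 of any KO mouse. Uba7 overlapped in clusters 6, 7 and 12 and not in cluster 8 (83.6 ± 2.96 CPM in KO mice and 117 ± 25.5 CPM in WT mice, SD, n = 3 each). Ube2l6 overlapped in clusters 7, 8 and 12, and in cluster 6 every KO mouse was above every WT mouse (22.8, 27.4 and 28.1 CPM in KO mice, 13.5, 12.9 and 18.7 CPM in WT mice). WT mice had 20 to 26 cells each in cluster 6, and the few UMIs behind the low values carry wide counting error. These values within clusters have no adjusted test, and the share of all genes without overlap within a cluster was not counted. Clusters that no marker list named held 80 KO and 1000 WT cells.

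**Figure D4:**
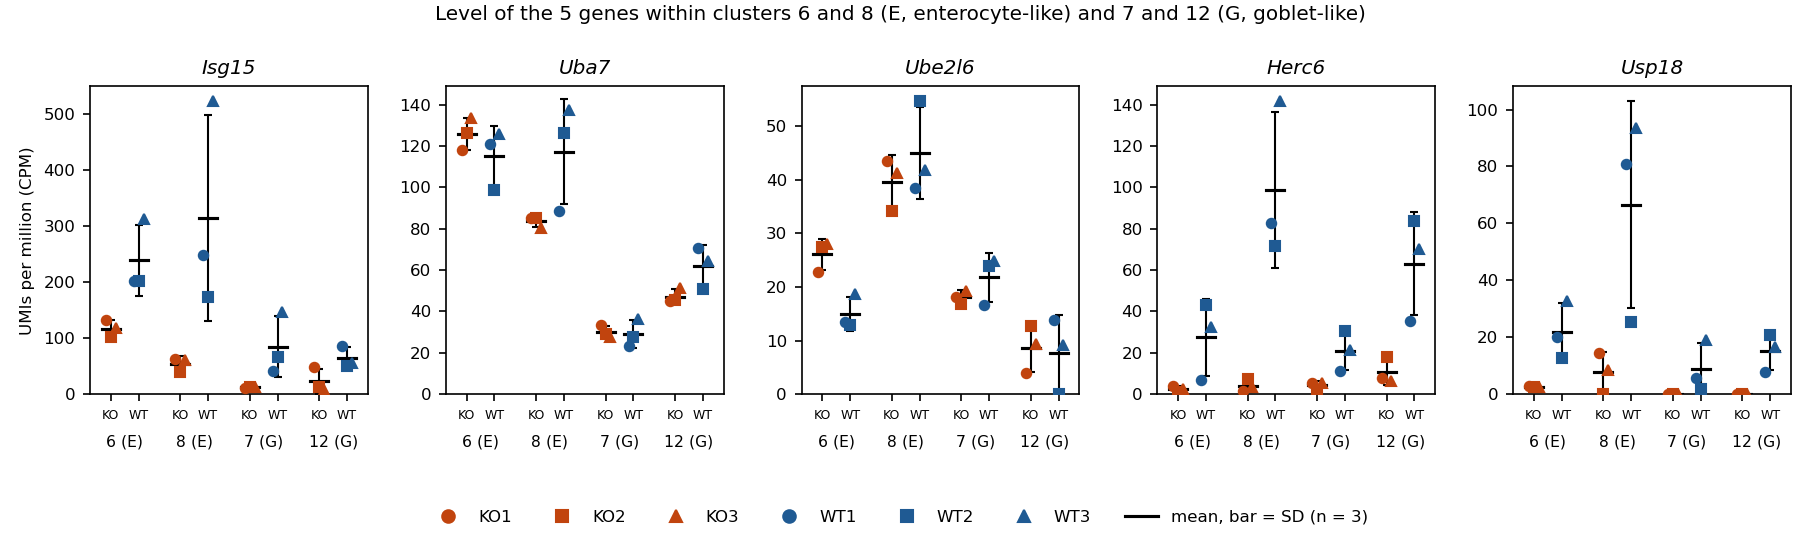
CPM of each gene (vertical axes, from 0, separate scales) within clusters 6 and 8, enterocyte-like (E), and clusters 7 and 12, goblet-like (G), with KO left of WT. Points are mice, lines are means and bars SD (n = 3). Isg15, Herc6 and Usp18 do not overlap in any of the 4 clusters, while Uba7 and Ube2l6 overlap in 3 of 4 each. Very few UMIs lie behind the lowest WT values of Herc6 in cluster 6 and of Usp18 in cluster 7.

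The classes differed in the share of their UMIs that came from the pathway. Within mice, goblet-like cells held less Isg15 than enterocyte-like cells, with a log2 difference of −2.70 (SE 0.25) in KO mice and −2.41 (SE 0.27) in WT mice (edgeR with mouse as a term, adjusted p = 5.11e-05 and 0.00118). Uba7 was lower in goblet-like cells by a log2 difference of −1.06 in KO mice (adjusted p = 0.00909) and −1.42 in WT mice (adjusted p = 0.00152), and Ube2l6 by −1.08 (adjusted p = 0.0140) and −0.96 (adjusted p = 0.0447). Herc6 differed by −0.15 in KO mice, which did not pass (adjusted p = 0.735), and by −1.13 in WT mice (adjusted p = 0.00372). Usp18 was lower in goblet-like cells of WT mice (−1.90, adjusted p = 0.00117) and too low to be tested in KO mice. So 3 of the 4 members tested in KO mice and 5 of 5 in WT mice were called lower in goblet-like cells, where 25.2% and 28.3% of all genes were. Goblet-like cells were also deeper, with median UMIs of 23294 to 28714 per cell in KO mice and 27539 to 32087 in WT mice. Enterocyte-like cells had medians of 8222 to 11748 and 8180 to 10739. The differences above are therefore relative to total UMIs and are not amounts per cell. Without thinning, Ube2l6 was seen in 32.4% of goblet-like and 25.8% of enterocyte-like cells of WT mice (means of 3 mice). Herc6 was seen in 27.6% and 27.3%. The shares were 51.7% and 75.8% for Isg15, 51.0% and 59.2% for Uba7, and 14.9% and 24.4% for Usp18.

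Whether the genotype effect itself differed between these classes was tested as an interaction, and 0 of 11342 genes were called (edgeR quasi-likelihood, 322 at an unadjusted p under 0.05). Herc6 was lower in KO by less in goblet-like than in enterocyte-like cells, with a log2 interaction of 1.001 (SE 0.27), which was past an unadjusted 0.05 and did not pass over all genes (edgeR quasi-likelihood test, adjusted p = 1.0). The interactions of Isg15 (−0.27, SE 0.33), Uba7 (0.38, SE 0.26), Ube2l6 (−0.10, SE 0.43) and Usp18 (−1.62, SE 0.97) did not pass either test.

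The rarer classes had too few cells in some mice for a test, so they are given per library, over hashtagged cells and cells without a hashtag, with exact 95% Poisson intervals that cover counting error only. Tuft-like cells, chemosensory cells of the epithelium, had 4 Isg15 UMIs over 21 cells in the KO library (10.8 CPM, 2.94 to 27.6) and 156 over 21 cells in the WT library (355 CPM, 302 to 416). The median depth of the 2 sets was alike at 15304 UMIs in KO and 15456 in WT. Their Uba7 levels were 21.6 CPM (9.31 to 42.5) in KO and 18.2 CPM (7.87 to 35.9) in WT, from 8 UMIs each. Enteroendocrine-like cells, which make hormones, had 8.14 CPM of Isg15 (3.72 to 15.5) over 46 KO cells and 54.99 CPM (38.9 to 75.5) over 53 WT cells. Of the 38 WT UMIs, 22 came from 20 cells without a hashtag (205 CPM). In hashtagged cells the mice overlapped, at 2.81, 11.8 and 5.92 CPM in KO mice and 54.01, 11.4 and 36.7 CPM in WT mice. Their Usp18 was at 15.4 CPM (8.96 to 24.6) in KO and 42.0 CPM (28.1 to 60.3) in WT. Among the epithelial classes of the KO library, enteroendocrine-like cells had the highest Usp18 level, ahead of enterocyte-like cells at 3.69 CPM (3.14 to 4.32).

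Crypt progenitor-like cells, dividing cells at the base of the epithelium, carried little of the pathway in both genotypes. Isg15 was at 6.33 CPM (5.03 to 7.87) over 167 KO cells and 8.03 CPM (5.76 to 10.9) over 125 WT cells, with overlapping intervals. Uba7 was at 3.98 CPM (2.97 to 5.24) in KO and 9.40 CPM (6.93 to 12.46) in WT. Since 165 of the KO and 85 of the WT cells with a hashtag came from KO2 and WT2, these values compare mostly that pair of mice. Paneth-like cells, which secrete antimicrobial peptides, had 15.2 CPM of Isg15 (11.1 to 20.3) in KO and 25.9 CPM (19.2 to 34.2) in WT, at a median depth of 91720.0 UMIs over 33 KO cells and 4954.5 over 66 WT cells. Of these WT cells, 49 carried no hashtag (75.7 CPM). The mice overlapped in hashtagged cells, at 6.41, 12.5 and 22.6 CPM in KO mice and 10.2, 20.3 and 32.3 CPM in WT mice. Neutrophil-like cells, which are not epithelial, had a higher Isg15 level in the KO library than in the WT library. They had 767 CPM of Isg15 (630.2 to 926) over 29 KO cells and 430.3 CPM (317 to 571) over 35 WT cells. The hashtagged WT cells among them, 20 in number, were all from WT1 (559 CPM), and the 15 without a hashtag were at 303 CPM, below the 399.95 CPM of enterocyte-like cells of the WT library. In KO, 25 of the 29 carried no hashtag and cannot be assigned to mice. Of the 109 KO Isg15 UMIs, 27 came from 2 cells of KO2, and KO1 and KO3 had 1 cell each, at 51.1 and 43.3 CPM. A genotype difference in these cells was not tested. Leaving the hashtagged neutrophil-like cells out of the sums over all cells gave Isg15 a log2 fold change of −2.54 without the block and a blocked adjusted p of 0.00518.

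**Figure D5:**
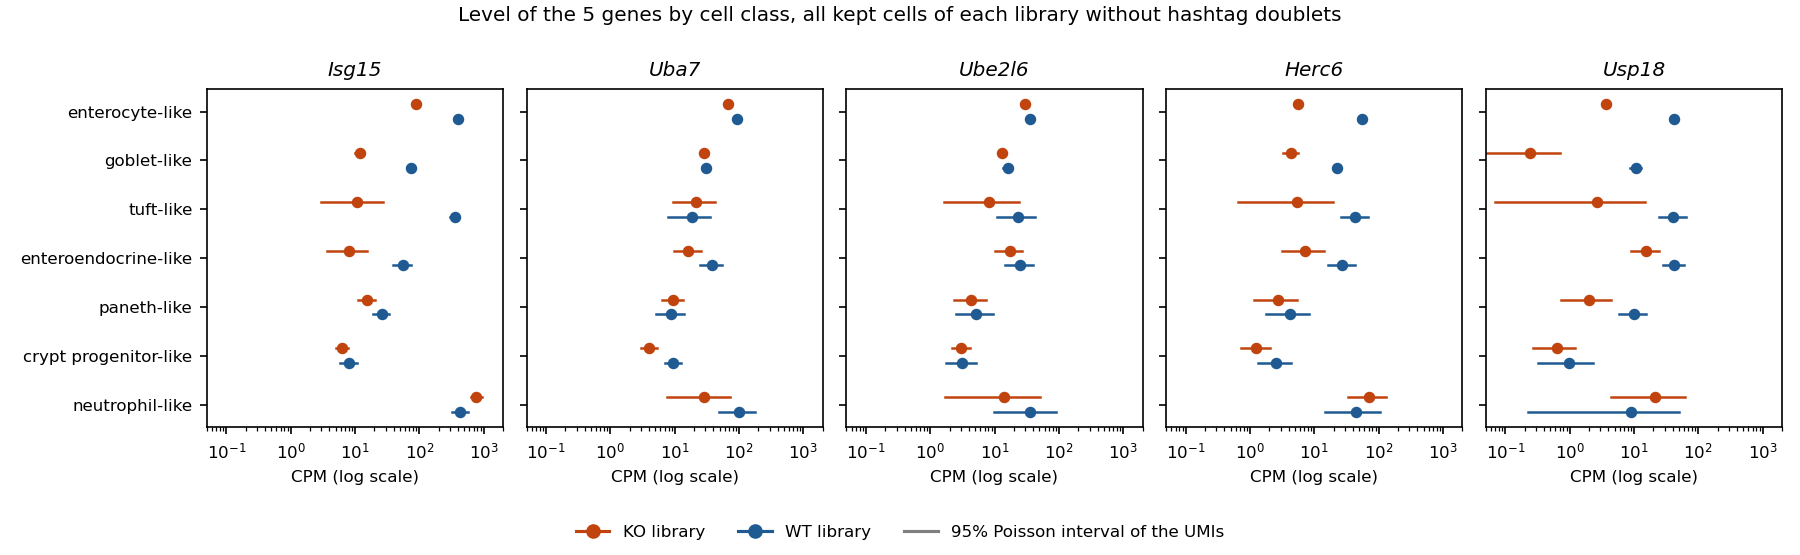
CPM of each gene (horizontal axes, log scale) by cell class over all kept cells of the KO library (upper point in each pair) and the WT library (lower point), without hashtag doublets. Lines are exact 95% Poisson intervals of the UMIs, for counting error only. The Isg15 intervals lie apart in enterocyte-like, goblet-like and tuft-like cells, and in enteroendocrine-like cells, where the mice overlap. The intervals overlap in crypt progenitor-like and Paneth-like cells, and the level is higher in the KO library in neutrophil-like cells.

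The lower level of Isg15 went with fewer cells in which it was seen. With every cell thinned to 2000 UMIs, 20.2%, 15.9% and 15.2% of enterocyte-like cells of KO mice held an Isg15 UMI, against 38.8%, 34.4% and 53.8% in WT mice. In goblet-like cells the shares were 1.52%, 1.22% and 4.14% in KO mice and 11.2%, 9.57% and 16.9% in WT mice. No genotype overlapped with the other (exact permutation p = 0.1 in both, the smallest 3 against 3 mice allow). For Uba7 the shares in enterocyte-like cells overlapped, at 17.4 ± 2.51% in KO mice and 18.3 ± 2.35% in WT mice (SD, n = 3 each). For Herc6 they were 0.951 ± 0.349% in KO mice and 8.28 ± 1.78% in WT mice, and for Usp18 0.400 ± 0.283% and 5.96 ± 1.99% (SD, n = 3 each). In KO2 and WT2, 0.606% (exact interval 0.0153 to 3.33) and 0% of 165 and 85 crypt progenitor-like cells held an Isg15 UMI at that depth, and a count of 0 of 85 allows a share of up to 3.53%. No class here is known to lack Isg15, so the share given by free RNA was not measured. Without thinning the order of the genotypes was the same.

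Isg15 UMIs were unevenly spread over cells. The tenth of enterocyte-like cells with the most held 53.7%, 56.9% and 54.1% of them in KO mice and 55.04%, 62.0% and 44.9% in WT mice, unthinned, and the genotypes overlapped. With cells thinned to 2000 UMIs the values were 62.2%, 71.9% and 76.3% in KO mice and 53.8%, 57.1% and 44.6% in WT mice. These values did not overlap. At that depth, however, only 17.1 ± 2.68% of these cells in KO mice held an Isg15 UMI, against 42.3 ± 10.2% in WT mice (SD, n = 3 each). The fewer cells hold a UMI, the larger the share that the highest cells must hold. The thinned values therefore cannot tell a more uneven spread from a lower level. Among thinned enterocyte-like cells of the WT library, Herc6 was seen in 12.3% of 1313 cells with an Isg15 UMI and in 5.93% of 1669 cells without, and the share was higher with Isg15 in each of the 3 WT mice. Usp18 was seen in 8.99% and 4.49% of the same cells. Uba7 was seen in 19.3% and 19.4%, and Ube2l6 in 6.40% and 6.89%. In the KO library Herc6 was seen in 1.57% of 510 cells with an Isg15 UMI and in 0.767% of 2346 without, counts of 8 and 18 cells. These shares describe cells and are not replicates.

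Enterocyte-like cells were also ranked by a score from villus-top and villus-bottom genes. The UMIs of each gene were divided by its sum over these cells and averaged over its list. The score is the villus-top average divided by the sum of both averages. Cells were divided by it into 3 parts of about equal cell number, which are ranges of a score and not cell types. Of 6158 cells, 3383 lay within 0.05 of the upper boundary and 889 within 0.05 of the lower one. Isg15 was higher in the top than in the bottom range of all 6 mice, at 134, 139 and 143 CPM against 112, 25.7 and 80.0 CPM in KO mice and 382, 369.6 and 535 CPM against 326, 230 and 530.3 CPM in WT mice. Outside KO2 the ratio of top to bottom lay between 1.01 and 1.78. The middle range was at 146, 144 and 105 CPM in KO mice and 364, 456 and 530 CPM in WT mice. It was the highest range in KO1, KO2 and WT2, so Isg15 did not rise steadily along the score in every mouse. Uba7 was higher at the top than at the bottom in all 6 mice too, by 1.18 to 2.06 times outside KO2 and 6.22 times in KO2. In WT1 and WT2 its middle range was the highest, at 106 and 112 CPM. Ube2l6 ran the other way in 5 of 6 mice, with a ratio of 0.353, 1.02 and 0.406 in KO mice and 0.286, 0.540 and 0.294 in WT mice. Herc6 and Usp18 were lower at the top than at the bottom in the same 5 mice. Herc6 ratios were 0.448 and 0.269 in KO1 and KO3 and 0.770, 0.607 and 0.395 in WT mice. The top range of KO1 held 11 Herc6 and 8 Usp18 UMIs, and that of KO3 held 3 and 1, so their ratios carry wide counting error. Herc6 was highest in the middle range in KO1, WT1 and WT2, at 9.25, 54.8 and 77.8 CPM. KO2 stood apart for every member, and its bottom range had a median of 43745.5 UMIs per cell, against 14575.5 in KO1 and 13830.0 in KO3; the part of that depth in the ratios was not tested. Within each of the 3 ranges, every KO mouse was below every WT mouse for Isg15. The share of all genes for which this held within a range was not counted. With the block, 9 of the 10 villus-top genes fell in enterocyte-like cells of KO mice, and 1 fell and 3 rose of 8 tested villus-bottom genes, where 8.94% of all genes fell and 11.3% rose; their part in the genotype difference was not tested.

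Other genes of the ISG15, interferon and ubiquitin systems were read from lists. Of 16 genes proposed as further ISG15 ligases, carriers or proteases, 15 were tested in enterocyte-like cells, and with the block 4 fell and 1 rose, where 8.94% of all genes fell and 11.3% rose. The blocked fit called 2150 genes in these cells and 147 without cluster 11, and the lists were not read again without that cluster. Those that fell were Trim25, a ubiquitin ligase that also acts on ISG15 (log2 fold change −0.89, adjusted p = 0.00377), Ube2e2 (−0.58), Herc4 (−0.53) and Arih1 (−0.34), and the one that rose was Usp14 (0.72). Their median blocked log2 fold change was −0.17, beside 0.053 over all genes, and none was called over all cells or in the goblet-like ones. Of 8 tested proteins known to be modified by ISG15, 4 fell in enterocyte-like cells with the block, among them Ifit1 (−3.08), which inhibits translation of viral RNA, Ddx58 (−0.94), the RNA sensor RIG-I, and Eif2ak2 (−0.77), the RNA-activated kinase PKR. Ifit1 stood at 14.6 ± 7.11 CPM in KO mice and 103 ± 22.5 CPM in WT mice (SD, n = 3 each) and also fell in all cells and goblet-like cells.

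Of 11 genes of the interferon receptor signalling that USP18 restrains, 4 fell in enterocyte-like cells with the block, where 8.94% of all genes fell, in the fit whose 2150 calls were 147 without cluster 11. Among them were Irf9 (−1.47, adjusted p = 3.69e-04) and Stat2 (−1.16, adjusted p = 7.35e-04), which encode subunits of ISGF3, and Irf7 (−1.15), a transcription factor of the interferon response. None of the receptor genes or kinases of the list was called. Of 24 genes of ubiquitin and other ubiquitin-like systems, 2 fell and 5 rose in the same fit, and over all genes 8.94% fell and 11.3% rose. Among those that fell was Ubd (−3.68, adjusted p = 0.00464), which encodes the ubiquitin-like modifier FAT10, and among those that rose were Rps27a (0.85), Sae1 (0.54) and Sumo2 (0.43). Ubd stood at 1.30 ± 1.34 CPM in KO mice and 13.1 ± 7.91 CPM in WT mice (SD, n = 3 each). Without the block 0 genes of these 4 lists were called in any set by edgeR.

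Likeness to Isg15 was measured by Pearson correlation of log2(CPM + 1) over 15 sums of a class in a mouse with at least 20 cells. Ranked were 5444 genes, those with a mean of at least 20 CPM and the other members. The most alike were Oasl2 (r = 0.977), Helz2 (0.967), Ifit1 (0.964), Trim30d (0.955) and Slfn4 (0.952). Crypt progenitor-like sums came from KO2 and WT2 only and the neutrophil-like sum from WT1 only, and their part in the correlations was not tested. Of the other members, Uba7 ranked 78 (r = 0.879), Ube2l6 176 (0.850), Herc6 229 (0.837) and Usp18 1049 (0.684), the last pair at mean levels under 20 CPM. The sums share mice and libraries, and class and genotype both move them, so these are descriptions.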

How the data were processed

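Single-cell RNA was captured from the 3′ end in 2 pooled libraries. The deposited matrices hold UMI counts per gene and barcode, from Cell Ranger 7.0.1 on mm10 per the submitters' processing notes, which also name Seurat 4.1.0. The strand setting and the use of intronic reads are not given in the sources used here. Kept barcodes had 1000 UMIs or more, 500 genes or more and no more than 25% of UMIs from mitochondrial genes. Hashtags were called with HTODemux in Seurat 5.3.0 (quantile 0.99) and cells with more than 1 hashtag (305 KO, 549 WT) were removed; doublets within a mouse were not. The 855 KO and 2241 WT cells without a hashtag entered only values per library. The remaining 8737 cells were clustered with scanpy 1.11.5 (2000 variable genes, 30 components, 15 neighbours, resolution 1) after leaving out 238 genes, interferon-induced genes and the members among them. Clusters were named from marker lists, with naming thresholds set after the clusters were seen. UMI counts were summed per mouse and tested with edgeR 4.0.16 (quasi-likelihood, TMM scaling, Benjamini-Hochberg, threshold 0.05), with DESeq2 1.42.0 as an alternative, and the code was tested on simulated data. The labels give hashtag numbers and no statement of pairing. Deviations of same-numbered KO and WT mice from their genotype means correlated at r = 0.547, 0.891 and 0.708 over all cells. The values were 0.785, 0.902 and 0.718 for enterocyte-like and 0.394, 0.756 and 0.471 for goblet-like cells. KO1 with WT3 correlated at 0.728, 0.757 and 0.367 in the 3 sets, and KO3 with WT1 at 0.582, 0.646 and 0.419. KO2 correlated negatively with WT1 and WT3 in each set. These values set the mice numbered 2 apart and do not show how the other mice would pair. The members and lists were chosen with earlier results of these data known, and the ratios between members after values were seen. Named from the lists are genes that passed with or without the block, at most 10 a list, and the 5 genes most like Isg15; leading genes of clusters are named where a value rests on them. Some genes of the lists are counted and not reported here by name.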

Additional observations from a re-analysis of the deposited data

How the results depend on the processing

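Isg15, Herc6 and Usp18 stayed lower in KO in each of 21 alternatives for all cells, 21 for enterocyte-like and 19 for goblet-like cells, and passed in every fit with the replicate block. In all cells 0 genes were called; with the block 152 were, by DESeq2 36, with the block and without the mice numbered 1, 2 or 3 there were 1212, 55 and 36, and Isg15 was at −2.56, −2.56, −2.81, −2.51 and −2.36. In enterocyte-like cells the block gave 2150 calls and DESeq2 52 against 0, with Isg15 at −2.31 and −2.28, and leaving out the 5% of cells with the most UMIs gave 10. In goblet-like cells, with 2 calls, the block gave 30, DESeq2 28, total-UMI scaling 0, no filter 5 and leaving out the deepest 5% of cells 38, with Isg15 at −2.59, −2.81 and, without those cells, −2.80. Leaving out 1 mouse gave 0 to 74 calls there (74 without WT2) and Isg15 at −3.20 to −2.03; Isg15 lay between −2.94 and −2.16 in all cells and between −2.62 and −1.92 in enterocyte-like cells. The remaining alternatives were chosen after seeing the data. The blocked fit without the mice numbered 1, 2 or 3 called 1683, 1443 and 207 genes in enterocyte-like cells (Isg15 −2.64, −2.19 and −2.10) and 81, 1590 and 35 in goblet-like cells (−2.89, −2.93 and −2.01). Without KO2 and WT2 the unblocked fit called 9, 1029 and 880 genes in the 3 sets, with Isg15 at −2.21 and −2.96 in the last pair. Without neutrophil-like cells the blocked fit called 173 genes in all cells (Isg15 −2.57). Without crypt progenitor-like, neutrophil-like and cluster 11 cells 10 were called, and 60 with the block (−2.47). In enterocyte-like cells, dropping cluster 11 gave 266 calls, and 147 with the block (−2.12 and −2.10), and adding unnamed clusters gave 417 with the block (−2.55), where Uba7 was not called (adjusted p = 0.0731). Adding cluster 10 to goblet-like cells gave 0, and 51 with the block (−2.84). With 1 mouse left out, Ube2l6 lay between −0.59 and 0.065 in all cells and between −0.46 and 0.16 in enterocyte-like cells, the upper values without KO2, and its sign turned in enterocyte-like cells without both mice numbered 2 (0.11, and 0.12 with the block). Uba7 in goblet-like cells lay between −0.63 and, without WT3, 0.036, and with the block it was at 0.033 without the mice numbered 3. The cause of these changes was not tested. Counting depth limits Herc6 and Usp18 in KO mice most, with 359 and 201 UMIs over the analysed cells of the KO library.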
